A study of Mus musculus with 28 samples.

Results

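The regions described here are 5 kb windows of the mouse genome (build mm10, chromosomes 1 to 19, window starts at multiples of 5000) that carried acetylated histone H3 lysine 9 (H3K9Ac) in MC38 control cells and not in B16 control cells. A window was a member if at least 2500 bp of it lay under H3K9Ac islands in each of the 3 MC38 CTRL libraries and 0 bp in each of the 3 B16 CTRL libraries, an island being a stretch that the authors' caller marked as enriched for reads. The members were thus chosen by the measured H3K9Ac of these 6 libraries, which is given here as a description with no test. The rule found 2468 members among 492175 windows, which is 0.501% of all windows; 61092 windows had that coverage in all MC38 CTRL libraries. The reverse rule found 2088 windows acetylated in B16 CTRL only, and 39814 windows were acetylated in both control groups. Without MC38 CTRL replicate 1 the rule would have found 3995.

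The study mapped H3K9Ac and trimethylated H3K9 (H3K9me3) by chromatin immunoprecipitation and sequencing of nuclease-digested chromatin. The groups were MC38 SETDB1, mouse colon adenocarcinoma cells transduced with a CRISPR construct holding a Setdb1 guide, MC38 CTRL, the same line with the empty construct, and B16 SETDB1 and B16 CTRL, the B16OVA mouse melanoma line with the same 2 constructs. All cells carried the puromycin-resistance CRISPR vector and were grown with puromycin, and the labels do not say whether a group was 1 clone or a pool. Editing of Setdb1 was not checked here, as the files hold chromatin marks only, so SETDB1 names the construct. Each group had 3 numbered libraries per mark, which were not said to be separate cultures, so p-values measure the spread between these libraries, which may be technical.

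H3K9Ac marks active promoters and enhancers, and acetyl and methyl groups cannot occupy the same lysine at once. H3K9me3 marks silenced chromatin, and SETDB1 is a methyltransferase that places it, chiefly over transposable elements and genes near them. Sites acetylated in one cell type and not in another can be places where gene control differs, and many such sites are enhancers inside or between genes and not promoters.

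The 12 H3K9Ac libraries held 28453371 to 78087809 island reads and the 12 H3K9me3 libraries 15200766 to 45419584. Levels are island reads per 1000000 scaled counted reads (RPM) in a 5 kb window. Reads of an island were spread evenly along it, so neighbouring windows inside 1 island share its value and are not independent, and 0 means that no island was called. Of the lineage markers with a start in the annotation used, 5 of 9 melanocyte genes had an H3K9Ac island in all 3 MC38 CTRL libraries, against all 9 in B16 CTRL, with Tyr, Tyrp1, Dct and Oca2 at 0 in every MC38 CTRL library. Of 14 gut epithelium genes, 7 had one in all 3 MC38 CTRL libraries and 6 in B16 CTRL, while of 8 fibroblast and mesenchymal genes it was 6 in MC38 CTRL and 3 in B16 CTRL. Within that last list Pdgfra was lower in MC38 CTRL, at 0.816 to 2.24 RPM against 2.27 to 3.53 RPM in B16 CTRL. Acta2 was at 0 in every library of both, and Col1a2 had no island in at least 1 MC38 CTRL library. The summed level at the gut starts was 54.5 to 68.9 RPM in MC38 CTRL and 27.6 to 76.2 RPM in B16 CTRL, ranges that overlap. Among the gut genes the keratin Krt8 had 10.2 to 18.8 RPM in MC38 CTRL and 1.72 to 9.49 RPM in B16 CTRL, which do not overlap, whereas Epcam, Cdx2 and Hnf4a had no island in at least 1 library of each control group and the mucin Muc2 was at 0 in all MC38 CTRL libraries. The gut list as a whole thus did not set MC38 apart from B16.

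The 300 bases around the start are shown for genes whose start lies in a member and that carry the contrast between the lines, with F2r added after its values were seen because its promoter holds an AP-1 match. The F2r window had 14.9 to 22.1 RPM of H3K9Ac in MC38 CTRL. Unlike the other genes shown, it had an island in B16 SETDB1 replicate 3, of 3.83 RPM. It was not called between the SETDB1 groups (edgeR adjusted p = 0.316). Sequences are from RefSeq on assembly GRCm38.p6, 250 bases before to 50 after the start, 5′ to 3′ on the gene's strand. Capitals mark matches on either strand to 4 motifs. The motif of AP-1 factors was TGANTCA. The E-box was spelled CACGTG. The TATA box was spelled TATAAA. The motif of TEAD factors was GGAATG. The genes are Prrx1 (chr1:163313601-163313900, minus strand) and Twist1 (chr12:33957421-33957720, plus strand), transcription factors of mesenchymal cells. The others are Fgf2 (chr3:37348403-37348702, plus strand), a fibroblast growth factor, Fhl2 (chr1:43163912-43164211, minus strand), a LIM-domain coregulator, Cxcl3 (chr5:90785851-90786150, plus strand), a chemokine for neutrophils, and F2r (chr13:95618417-95618716, minus strand), the thrombin receptor.
Prrx1: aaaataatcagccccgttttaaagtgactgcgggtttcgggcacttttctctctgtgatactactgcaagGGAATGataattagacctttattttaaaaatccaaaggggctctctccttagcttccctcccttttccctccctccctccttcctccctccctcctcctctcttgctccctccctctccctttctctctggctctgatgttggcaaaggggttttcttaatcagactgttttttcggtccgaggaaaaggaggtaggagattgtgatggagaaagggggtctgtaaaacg
Twist1: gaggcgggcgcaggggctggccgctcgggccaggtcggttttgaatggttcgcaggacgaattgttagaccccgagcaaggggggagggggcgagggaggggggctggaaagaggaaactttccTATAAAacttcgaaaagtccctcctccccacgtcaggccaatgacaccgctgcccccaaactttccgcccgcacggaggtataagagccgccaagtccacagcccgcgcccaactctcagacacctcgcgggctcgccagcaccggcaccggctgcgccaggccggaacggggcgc
Fgf2: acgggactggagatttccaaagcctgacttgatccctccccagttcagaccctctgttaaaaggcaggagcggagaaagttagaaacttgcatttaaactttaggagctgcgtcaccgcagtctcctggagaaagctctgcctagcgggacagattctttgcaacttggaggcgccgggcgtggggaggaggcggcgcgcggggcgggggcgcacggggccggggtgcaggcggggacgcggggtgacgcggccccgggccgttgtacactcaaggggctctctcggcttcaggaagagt
Fhl2: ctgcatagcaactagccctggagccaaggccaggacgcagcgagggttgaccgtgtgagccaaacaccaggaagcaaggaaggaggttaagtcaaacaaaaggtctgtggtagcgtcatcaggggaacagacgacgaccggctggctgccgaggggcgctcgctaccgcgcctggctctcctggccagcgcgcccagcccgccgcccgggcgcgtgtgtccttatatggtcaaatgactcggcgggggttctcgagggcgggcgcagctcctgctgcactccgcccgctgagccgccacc
Cxcl3: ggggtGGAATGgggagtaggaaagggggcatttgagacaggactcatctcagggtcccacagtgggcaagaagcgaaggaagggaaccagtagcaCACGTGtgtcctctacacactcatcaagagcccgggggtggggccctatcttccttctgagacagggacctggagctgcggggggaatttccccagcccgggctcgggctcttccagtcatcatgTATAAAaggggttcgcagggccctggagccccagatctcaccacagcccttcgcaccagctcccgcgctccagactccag
F2r: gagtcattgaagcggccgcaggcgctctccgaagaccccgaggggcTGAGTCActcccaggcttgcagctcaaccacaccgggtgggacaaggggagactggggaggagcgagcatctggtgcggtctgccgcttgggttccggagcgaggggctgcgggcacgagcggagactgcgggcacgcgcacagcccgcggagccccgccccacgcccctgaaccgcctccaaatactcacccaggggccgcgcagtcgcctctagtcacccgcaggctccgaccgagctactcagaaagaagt

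Member windows at starts of mesenchymal and growth factor genes carried acetylation in every MC38 library of both genotypes and in no B16 library. The Prrx1 window had 32, 16.5 and 25 RPM of H3K9Ac in MC38 SETDB1 and 35.1, 16.9 and 23.7 RPM in MC38 CTRL, with 0 in all 6 B16 libraries. The Twist1 window had 23, 10.2 and 11.4 RPM in MC38 SETDB1 and 20.3, 15.0 and 12.1 RPM in MC38 CTRL, again with 0 in all B16 libraries. At Fgf2 the levels were 10.8, 15.5 and 11.2 RPM in MC38 SETDB1 and 13.6, 10.8 and 12.2 RPM in MC38 CTRL, with none in B16. For these 3 genes the MC38 genotypes overlap and the lines do not. The SETDB1 libraries of both lines were not used by the rule, and edgeR's test between them gave adjusted p = 0.0105 for the Prrx1 window, 0.0148 for Twist1 and 0.0121 for Fgf2, higher in MC38 SETDB1. With the replicate number added to the fit as a block, edgeR's adjusted p was 0.219, 0.235 and 0.261 for these windows. The 3 windows were at 0 in B16 SETDB1, so they entered the test through reads in MC38 SETDB1 alone. They were also picked for their contrast, so these p-values are a description and no independent support.

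**Figure D1:**
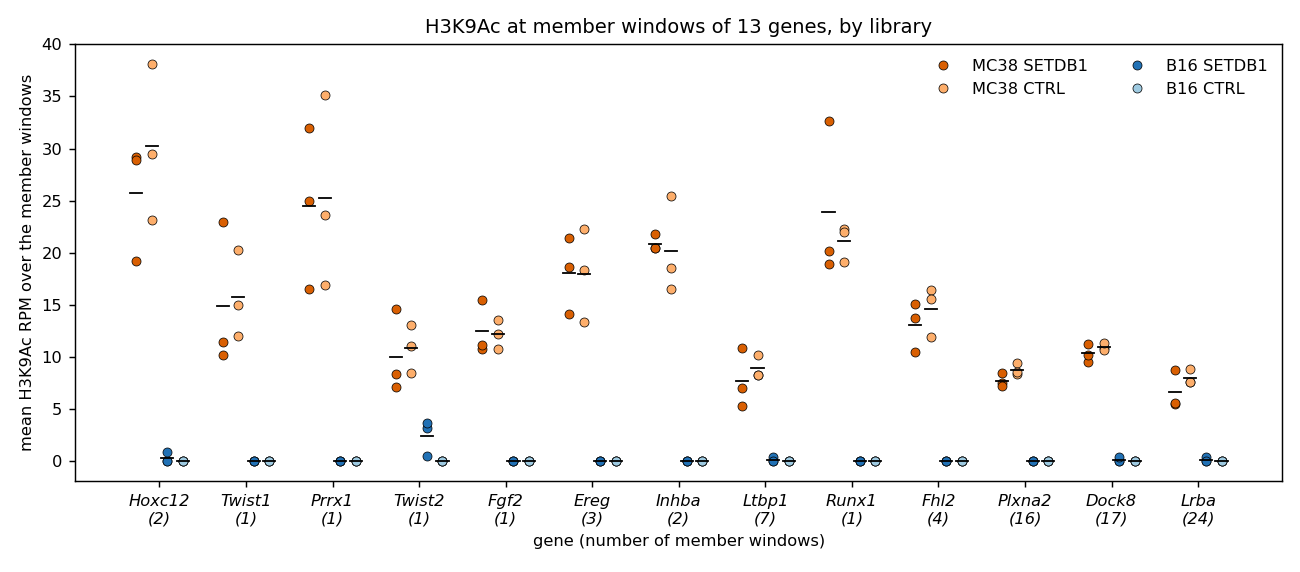
Mean H3K9Ac level (RPM, vertical axis) over the member windows of 13 genes (horizontal axis, number of member windows in brackets), 1 point per library and a line at the group mean. MC38 SETDB1 and MC38 CTRL points lie together, between 10.2 and 23 RPM in the SETDB1 libraries at Twist1 for example, and B16 points lie at or near 0.

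Starts were a small part of the set. An annotated start lay in 164 of the 2358 members on chromosomes covered by the promoter table (6.96%), against 7.12% of the windows acetylated in B16 CTRL only, 16.1% of those acetylated in both control groups and 5.36% of all windows. Members lay inside a gene in 80.4% of cases, against 83.6% of windows of B16 CTRL only, 94.9% of windows shared by both lines and 53.9% of all windows, and the median distance from a window's middle to the nearest start was 24.8 kb, against 13.6 kb for windows shared by both lines. They lay in or within 2 kb of 1002 named coding genes (5.24% of 19122; Riken, Gm and similar models were left out), of which 650 had 1 member window and 65 had 5 or more. Of the 764 such genes with an annotated start, 505 (66.1%) had H3K9Ac islands at a start in all 3 libraries of both control groups, near the 59.5% of all 15230 genes with a start. Islands in both lines do not mean equal levels at the start. At 129 genes (16.9%, against 1.71% of all genes) a start was acetylated in all MC38 CTRL and no B16 CTRL library, a share that the choice of members favours, and at 96 a start lay in a member itself.

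The 195 annotated starts inside members had few CG pairs, with a median of 7 per 300 bases, the same as the median of all 31365 starts and below the 21 of starts in windows shared by both lines. The AP-1 letters TGANTCA were found in 29 of the 195 promoters (14.9%), against 5.95% of those in windows of B16 CTRL only, 4.9% of those in shared windows and 7.85% of all. Some of the 29 overlap one another, as those of Gm36163 and those of Tnfsf13b do, so they are not all separate sequences. Shares were 15.4% against 13.6% of all for TATAAA, 6.15% against 7.14% for CACGTG and 12.8% against 14.6% for GGAATG. Promoters printed above other than that of F2r hold no TGANTCA. These are counts of letters in a fixed window and say nothing on binding.

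The 96 genes with a start in a member include regulators of development, inflammation and matrix, which are described here as a group chosen after their values were seen. Besides Twist1, Prrx1 and Msx2 they include the transcription factors Foxf2, Isl1, Irx2, En1 and Dmrt2. Foxf2, a forkhead factor of mesenchyme, had 23.4, 16.7 and 16.6 RPM in MC38 SETDB1 and 28.5, 16.2 and 16.3 RPM in MC38 CTRL, with no island in B16. Ptgs2, the inducible cyclooxygenase of prostaglandin synthesis, had 26.2, 22.9 and 19.6 RPM in MC38 SETDB1 and 25.7, 21 and 20.3 RPM in MC38 CTRL, and Il1r1, the interleukin-1 receptor, had 16.6, 13.5 and 13.1 RPM and 16.5, 13.1 and 9.77 RPM in the same groups. Both were without an H3K9Ac island in B16. The Il1r1 window had H3K9me3 of 13.3, 7.29 and 0 RPM in B16 SETDB1 and 0, 0 and 2.77 RPM in B16 CTRL. Over the 96 genes, 69 kept at least 2500 bp of H3K9Ac in all 3 MC38 SETDB1 libraries at all their member starts, and 74 had no island there in any B16 SETDB1 library. A further 11 of the 96 were replication-dependent histone genes on chromosome 13 such as H1f5, which had 25.6, 19.8 and 12.1 RPM in MC38 SETDB1 and 28.5, 20.2 and 11.5 RPM in MC38 CTRL and 0 in B16. Histone genes are near-identical copies, so reads may be split between them in ways these files do not show.

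Among the lists, the fibroblast and mesenchymal genes had the highest share with a member window, 4 of 16 (25%), against 5.24% of all coding genes. Prrx1, Twist1 and Twist2 had 1 window each. Twist2, a relative of Twist1, had 8.38, 14.6 and 7.18 RPM in its member window in MC38 SETDB1, 13.1, 11.1 and 8.47 RPM in MC38 CTRL and 0.565, 3.17 and 3.66 RPM in B16 SETDB1. Its start was no member because 2 of the 3 B16 CTRL libraries had islands there of 0.986 and 1.90 RPM, against 18.2 to 29.9 RPM in MC38 CTRL. No gene of the melanocyte list (14), the gut epithelium list (19) or the housekeeping list (13) had a member window.

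Of 29 genes of TGF-beta and bone morphogenetic protein (BMP) signalling, 6 had a member window, at ligands, receptors and carriers alike. Inhba, which encodes the subunit of activin A, had 21.8, 20.5 and 20.4 RPM over its 2 windows in MC38 SETDB1 and 25.4, 16.5 and 18.5 RPM in MC38 CTRL, with 0 in B16. Its start was acetylated in both lines, at 16.3 to 22.4 RPM in MC38 CTRL and 3.22 to 5.69 RPM in B16 CTRL. Ltbp1, which encodes a protein that holds latent TGF-beta in the matrix, had 7 member windows with 5.34, 10.9 and 7.05 RPM in MC38 SETDB1 and 8.32, 10.2 and 8.28 RPM in MC38 CTRL. The others were Bmpr1a, a BMP receptor, Tgfbr3, a coreceptor, and the ligands Bmp6 and Bmp7.

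Of 32 genes of EGF, FGF and Met receptor signalling, 5 had one, 4 of them ligands: Ereg, Nrg1, Fgf2 and Fgf7, beside the receptor Fgfr1. Ereg, which encodes the EGF receptor ligand epiregulin, had 21.4, 18.7 and 14.2 RPM over 3 windows in MC38 SETDB1 and 22.3, 18.4 and 13.3 RPM in MC38 CTRL, with 0 in B16. All 3 windows were higher in MC38 SETDB1 than in B16 SETDB1 (edgeR adjusted p at most 0.0134, and 0.219 to 0.227 with the replicate number as a block). They too entered the test through reads in MC38 SETDB1 alone. Of 41 Wnt and R-spondin genes, 6 had one. Ror2, a receptor of Wnt5a, had 6 windows with 4.92, 8.22 and 9.10 RPM in MC38 SETDB1 and 10.1, 10.7 and 10.2 RPM in MC38 CTRL. Its SETDB1 levels lay below all 3 controls, but the windows were chosen by H3K9Ac in those controls, so no change is read from this. Wnt5a itself had 2 windows with 9.87, 8.45 and 6.55 RPM in MC38 SETDB1 and 12.5, 10.4 and 8.62 RPM in MC38 CTRL.

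Of 53 Hox and other homeobox genes, 3 had a member window. The pair of windows at Hoxc12 (chr15:102935001-102945000), a posterior Hox gene, had 29.2, 28.9 and 19.2 RPM in MC38 SETDB1 and 38.1, 29.5 and 23.2 RPM in MC38 CTRL, the highest mean of all members there. In B16 SETDB1, 1 of the 2 windows had an island in 1 library. Of 25 genes of AP-1 and stress factors, Wwtr1, Runx1 and Runx2 had member windows, and Runx1, a factor of blood and epithelial cells, had 32.7, 18.9 and 20.2 RPM in MC38 SETDB1 and 22.3, 19.2 and 22 RPM in MC38 CTRL. Runx1 starts were acetylated in both lines, with 12 to 18.5 RPM in B16 CTRL.

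Other lists had few or no members. Of 35 chemokines and cytokines only Cxcl3 had one, with 5.52, 3.48 and 8.29 RPM in MC38 SETDB1 and 3.53, 4.07 and 5.32 RPM in MC38 CTRL. Of 30 integrins and cadherins it was Cdh13, Cdh3 and Itga7, of 32 matrix and protease genes Col4a2, of 18 tumour suppressor genes Rb1, of 18 neural genes Sox5, and of 12 leukocyte genes Cd4 and Cd8a. Neither leukocyte gene kept its coverage in all MC38 SETDB1 libraries, and the Cd8a start was at 0 in every library. Of 7 leukocyte starts, those of Cd68 and Ikzf1 had H3K9Ac islands in all 3 MC38 CTRL libraries, Ikzf1 at 1.68 to 3.67 RPM, and Cd68 alone in all 3 B16 CTRL libraries. The Ptprc start had 0 to 7.25 RPM in MC38 CTRL and 0 in B16 CTRL, and Cd3e, Itgam and Itgax were at 0 in both. The summed level of the 7 was 7.01 to 21.3 RPM in MC38 CTRL and 12.8 to 16.6 RPM in B16 CTRL.

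Members formed 2026 runs of adjacent windows, of which 1724 were single windows and 5 were 8 windows long. The region around Myc, a transcription factor gene of cell growth, held 14 of 18 windows as members (chr15:61945001-62035000). Each MC38 library had 1 unbroken H3K9Ac island reaching past its downstream edge, 281, 269 and 311 kb long in MC38 SETDB1 and 281, 312 and 311 kb in MC38 CTRL, which covered 77.2 to 90 kb of the 90 kb. In B16 the longest island there was 14.6, 9.40 and 12.2 kb in SETDB1 and 12.6, 9.40 and 14.8 kb in CTRL, and lay over Myc itself (chr15:61985341-61990361). The windows wholly under the MC38 island share 1 H3K9Ac value per library, 22.2, 33.1 and 32.1 RPM in MC38 SETDB1 and 30.0, 30.0 and 29.3 RPM in MC38 CTRL, among the highest of all members. One of them (chr15:61960001-61965000) also had H3K9me3 of 0, 57.45 and 0 RPM in MC38 CTRL, with 0 in MC38 SETDB1. In MC38 CTRL replicate 2 the H3K9me3 island covered all 5000 bp of that window.

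A block on chromosome 5 (chr5:113085001-113230000), over the gene 2900026A02Rik and part of Tmem211, held 26 of 29 windows as members. It lies outside the rule for named genes and was picked after its values were seen. Islands covered 121, 127 and 114 kb of its 145 kb in MC38 SETDB1 and 119, 126 and 126 kb in MC38 CTRL, in 13 to 17 islands per library, and 0 kb in all 6 B16 libraries. Other long runs lay in Dock8, an exchange factor for small GTPases, with 17 member windows over its 203 kb, in Plxna2, a semaphorin receptor, with 16, and in Gcnt1, a mucin-type glycan enzyme, with 6. The gene with the most was Lrba, a large gene of vesicle traffic, with 24, of which 13 kept their coverage in all MC38 SETDB1 libraries. Ssbp2 had 16, Ank3 15, and Atg10, Ghr and Kalrn 14 each. Plxna2 had 7.52, 7.27 and 8.44 RPM in MC38 SETDB1 and 8.37, 9.46 and 8.56 RPM in MC38 CTRL, no island in B16 SETDB1 in any of its 16 windows, and 15 windows called higher in MC38 SETDB1 than in B16 SETDB1. Its start also had H3K9Ac islands in all MC38 and no B16 library. The Plxna2 calls did not hold with the replicate number as a block, and those windows also entered the test through reads in MC38 SETDB1 alone.

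With the Setdb1 guide, most of these windows still held H3K9Ac islands in MC38. At least 2500 bp stayed under H3K9Ac islands in all 3 MC38 SETDB1 libraries at 1304 members (52.8%, exact 95% interval 50.8% to 54.8%, counting error only), in 2 libraries at 730, in 1 at 358 and in none at 76. Any island was found in all 3 at 2041 (82.7%), and 11 had none. The mean level over members was 7.37, 8.86 and 8.10 RPM in MC38 SETDB1 and 9.39, 9.86 and 8.75 RPM in MC38 CTRL, so the groups overlap. Coverage in the controls was the criterion, so the 100% there is no baseline and no change is read from the difference. The same count in windows picked in both lines was 90.1%, and in windows of B16 CTRL only, counted in B16 SETDB1, 77.9%. Depth moved with this: MC38 SETDB1 libraries held 28453371 to 45086805 H3K9Ac island reads, MC38 CTRL libraries 33917255 to 69359709 and B16 SETDB1 libraries 46529357 to 78087809, and its part was not tested.

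The share that kept coverage rose with the control level, which is again a description. Members were split by their mean level in MC38 CTRL into 4 classes of 617. The share was 26.7% in the class with 3.93 to 6.66 RPM, 47.3% with 6.66 to 8.33 RPM, 60.6% with 8.33 to 10.9 RPM and 76.7% with 10.9 to 30.3 RPM. The 11 members without any MC38 SETDB1 island lay in the lower 2 classes. They include windows in Ndst3, a heparan sulphate enzyme, with 5.00, 8.04 and 6.30 RPM in MC38 CTRL, in Dkk2, a Wnt inhibitor, with 6.76, 4.52 and 5.28 RPM, and in Aopep, an aminopeptidase, with 6.91, 7.76 and 7.52 RPM.

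**Figure D2:**
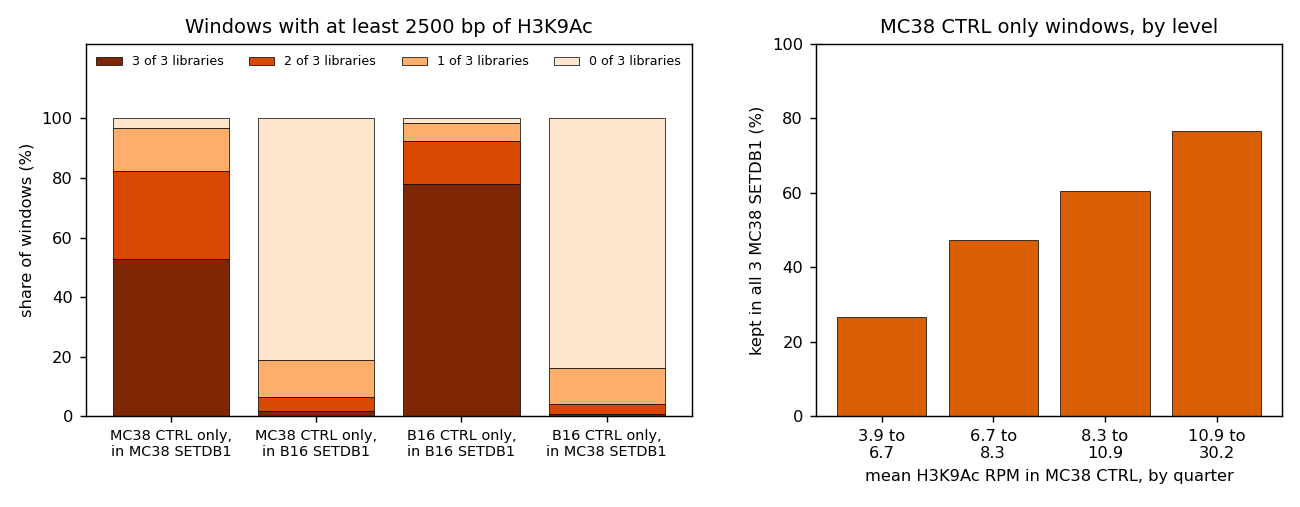
Left, share of windows (%) with at least 2500 bp under H3K9Ac islands in 3, 2, 1 or 0 SETDB1 libraries, for windows acetylated in MC38 CTRL only and in B16 CTRL only. Right, share of the MC38 CTRL only windows (%) that kept this coverage in all 3 MC38 SETDB1 libraries, in 4 classes by their mean H3K9Ac level in MC38 CTRL (RPM), from 26.7% in the lowest class to 76.7% in the highest.

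In B16 SETDB1, 1554 members (63.0%) had no H3K9Ac island in any library, 497 had one in 1 library, 267 in 2 and 150 (6.08%) in all 3. At least 2500 bp in all 3 was reached by 47 (1.90%). The mean level over members was 0.703, 0.767 and 0.775 RPM. As members had to be without islands in B16 CTRL, a count above 0 in other B16 libraries does not show a gain. In the edgeR test between the SETDB1 libraries, 1229 members (49.8%) were called higher in MC38 SETDB1 than in B16 SETDB1 at an adjusted p under 0.05, against 4.51% of the 194745 windows tested. None was called lower by edgeR or DESeq2 at an adjusted p under 0.05, against 5.79% of all windows tested with edgeR. At an unadjusted edgeR p under 0.05, 0 of the 2457 members tested were lower. Members passed the read filter of this test mainly through MC38 SETDB1, so a lower call could hardly occur and nothing is read from the 0. The same filter and the choice of members favoured a higher call. The 49.8% is thus a description, and its distance from the 4.51% is no independent support. The count of members called higher fell to 429 without MC38 SETDB1 replicate 1, 672 without replicate 2 and 787 without replicate 3, and to 611 without B16 SETDB1 replicate 1. With the replicate number added to the edgeR fit as a block it fell to 0. Of the 1229, 1209 had no island in any B16 SETDB1 library, so their fitted fold changes have no meaning as sizes. Of the 137 members with islands in all 6 SETDB1 libraries, 126 were fitted above 0 with a median log2 difference of 0.88, against -0.01 for all windows tested, and 20 were called.

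The members with the highest levels in B16 SETDB1 came near or into the range of MC38 SETDB1. The window in Rab3gap1, which encodes a subunit of a Rab3 GTPase-activating protein, had 8.98, 6.67 and 10.6 RPM in MC38 SETDB1, 6.52, 7.66 and 8.83 RPM in MC38 CTRL and 9.44, 8.15 and 10.4 RPM in B16 SETDB1, with 0 in B16 CTRL. Prim1, a primase subunit, had 16.1, 11.2 and 13 RPM in MC38 SETDB1, 11.1, 7.11 and 11 RPM in MC38 CTRL and 10.3, 8.17 and 6.93 RPM in B16 SETDB1. At Man2a1, a Golgi mannosidase, the levels were 9.19, 12.4 and 9.12 RPM in MC38 SETDB1 and 7.03, 12.5 and 6.36 RPM in B16 SETDB1. The SETDB1 groups overlap at Rab3gap1 and Man2a1, while at Prim1 all 3 MC38 SETDB1 levels lay above those of B16 SETDB1. Tcf7l1 and Tmprss9 belonged to the same group. EdgeR called none of these windows between the SETDB1 groups (adjusted p from 0.12 to 0.834), and DESeq2 called the Prim1 window higher in MC38 SETDB1 (adjusted p = 0.00544).

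H3K9me3 was rare at the members in MC38 and more frequent in B16. The share of members with no H3K9me3 island in any library was 94.4% in MC38 SETDB1, 91.7% in MC38 CTRL, 71.6% in B16 SETDB1 and 75.5% in B16 CTRL, against 57.4%, 60.7%, 62.2% and 66.5% of all windows. Islands in all 3 libraries were found at 18 members (0.729%) in MC38 SETDB1, 32 (1.3%) in MC38 CTRL, 221 (8.95%) in B16 SETDB1 and 194 (7.86%) in B16 CTRL. The shares in B16 were below the 13% of all windows in B16 CTRL and above the 0.746% of windows acetylated in both lines. Windows acetylated in B16 CTRL only showed the reverse order. Of those, 75.9% had no H3K9me3 island in any MC38 CTRL library and 84.2% had none in any B16 CTRL library. Less H3K9me3 in the line picked for H3K9Ac is thus not particular to the members. At 1546 members (62.6%) no library of either line had an H3K9me3 island, and 929 (37.6%) had no island of either mark in any B16 library.

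**Figure D3:**
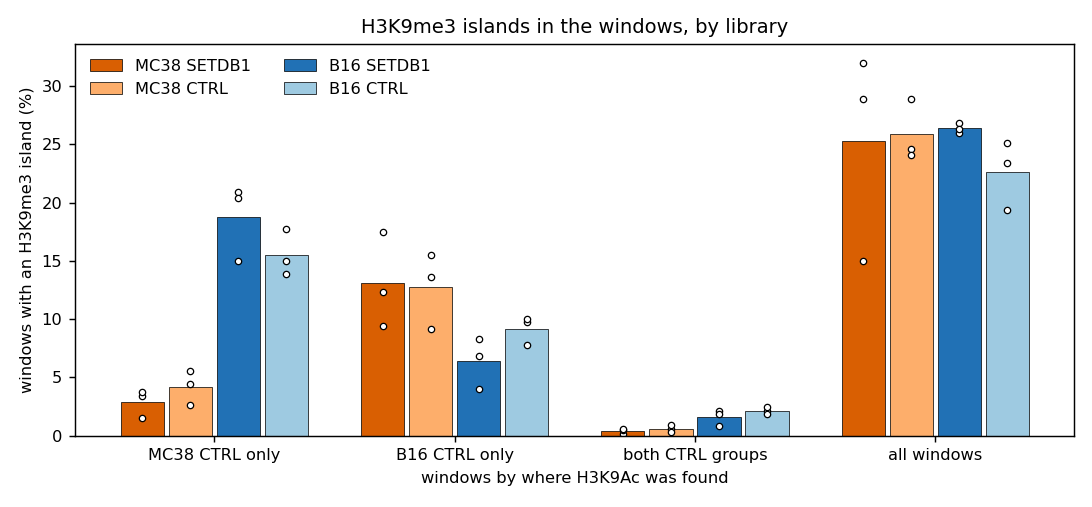
Share of windows (%) with an H3K9me3 island, for windows acetylated in MC38 CTRL only, in B16 CTRL only, in both control groups, and for all windows. Bars are means over the 3 libraries of a group and points are libraries. Windows of MC38 CTRL only had islands in 13.9% to 17.7% of cases in B16 CTRL libraries and in 2.67% to 5.59% in MC38 CTRL libraries.

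Only 697 of the 2468 members had enough H3K9me3 island reads to be tested, a filter that members pass mainly through B16. In MC38 CTRL against B16 CTRL, edgeR called 64 members lower (2.59% of members, against 2.8% of the 269905 windows tested) and 2 higher (against 4.23%), and DESeq2 254 lower and 19 higher. All 64 had H3K9me3 islands in every B16 library of both genotypes, and 63 had none in any MC38 CTRL library. The 2 shares called lower have unlike bases, all 2468 members and the windows tested, so they cannot be set against each other. Among the 697 members tested, a filter passed mainly through B16 favoured a lower call. No result about the members as a group is read from the 64. The single windows with the smallest p were at Hsf2bp and Fhl2.

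The window in Hsf2bp, a meiotic recombination factor (chr17:31990001-31995000), had 0 RPM of H3K9me3 in all 6 MC38 libraries, 18.3, 22.2 and 19.7 RPM in B16 SETDB1 and 19.4, 20.2 and 19.8 RPM in B16 CTRL (edgeR adjusted p = 0.00189, MC38 CTRL lower than B16 CTRL). H3K9Ac in this window was found in MC38 alone, with 11.4, 15.3 and 11.7 RPM in MC38 SETDB1, 14.1, 16.4 and 13.2 RPM in MC38 CTRL and 0 in B16. The Hsf2bp start, which is no member, was acetylated in both lines, at 3.16 to 4.23 RPM in MC38 CTRL and 6.02 to 13.2 RPM in B16 CTRL. Fhl2 showed the pattern of the Hsf2bp member window over a run of 4 windows that includes 1 of its 2 start windows (chr1:43150001-43170000). Mean H3K9me3 over the run was 0 in MC38, 14.7, 17.6 and 15.9 RPM in B16 SETDB1 and 14.9, 16.1 and 11.9 RPM in B16 CTRL. Mean H3K9Ac was 13.8, 15.1 and 10.5 RPM in MC38 SETDB1, 16.4, 15.6 and 11.9 RPM in MC38 CTRL and 0 in B16. In 2 of the Fhl2 windows, among the 4 with the smallest p, H3K9me3 was called lower in MC38 CTRL than in B16 CTRL (edgeR adjusted p = 0.00355 and 0.00367). The B16 SETDB1 and B16 CTRL ranges overlap at both genes. Members with H3K9me3 in all B16 CTRL libraries also lay in Vopp1 (4 of its 4 member windows), Pak1 (3 of 3), Styk1 (3 of 4) and Dock8 (3 of 17).

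Higher H3K9me3 in MC38 CTRL than in B16 CTRL was called at 1 window in Myo16 (edgeR adjusted p = 0.00354) and 1 in Trpm3 (0.047). The Trpm3 call was lost when any single MC38 or B16 CTRL library was left out (adjusted p from 0.068 to 0.118) or any MC38 SETDB1 library (0.0575 to 0.0886). The Myo16 window (chr8:10350001-10355000), in the gene of an unconventional myosin, had 8.67, 10.9 and 12.7 RPM of H3K9me3 in MC38 SETDB1, 5.42, 10.5 and 10.9 RPM in MC38 CTRL, 8.39, 8.02 and 4.75 RPM in B16 SETDB1 and 0 in B16 CTRL. It carried both marks in MC38 CTRL, with H3K9Ac of 5.14, 5.70 and 5.18 RPM there.

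**Figure D4:**
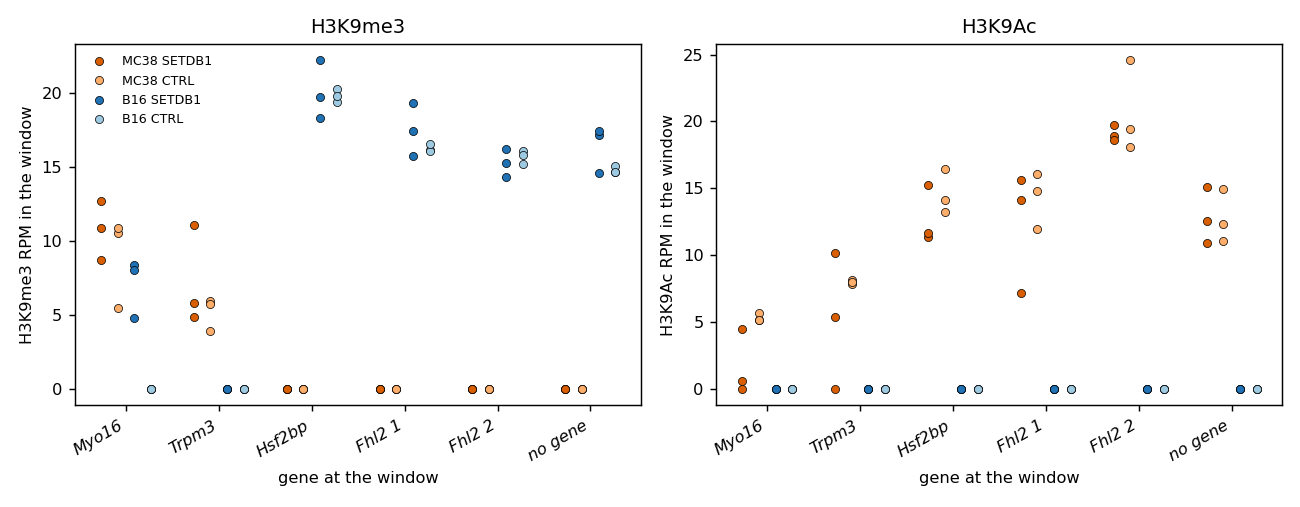
H3K9me3 (left) and H3K9Ac (right) level (RPM, vertical axes) in the 6 member windows with the smallest p for H3K9me3 between the control groups, 1 point per library. Hsf2bp, both Fhl2 windows and a window outside coding genes had H3K9me3 in B16 alone and H3K9Ac in MC38 alone, with 18.3 to 22.2 RPM of H3K9me3 in B16 SETDB1 at Hsf2bp.

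Few members were called for H3K9me3 between SETDB1 and CTRL. Over the genome H3K9me3 islands covered 563, 442 and 215 Mb in MC38 SETDB1 and 345, 344 and 452 Mb in MC38 CTRL, so MC38 SETDB1 replicate 3 stood apart; without it, 3 members were called lower. In MC38 SETDB1 against MC38 CTRL, edgeR called 2 members lower (0.0810% of members, against 0.0411% of all windows tested) and none higher (against 0.0137% of all windows tested), where DESeq2 called 22 lower and 12 higher. At an unadjusted edgeR p under 0.05, 10 members were higher, a count for which no background was computed. Of the 2 members called lower, 1 was the window at F10, the gene of coagulation factor X, with 0 RPM in all MC38 SETDB1 libraries and 6.82, 10.6 and 9.56 RPM in MC38 CTRL (edgeR adjusted p = 0.00883). There B16 SETDB1 had 10.2, 11.4 and 10.9 RPM and B16 CTRL 7.20, 14.3 and 10.8 RPM. The other member called lower lay outside coding genes (chr3:90630001-90635000), with 0 RPM in MC38 SETDB1 and 1.74, 3.95 and 2.60 RPM in MC38 CTRL (edgeR adjusted p = 0.00862). In B16 SETDB1 against B16 CTRL, edgeR called 1 member higher (background 0.295%), the Myo16 window (adjusted p = 0.00521), and none lower (background 0.0904%), where DESeq2 called 12 higher and 14 lower. At an unadjusted edgeR p under 0.05, 17 members were lower there, again without a background at that threshold. Fitted on the 6 libraries of the compared groups alone, edgeR called none of these 3 windows (adjusted p = 0.888 for F10 and the window on chromosome 3, and 0.497 for Myo16). Without MC38 CTRL replicate 3, 5 members were called lower in MC38 SETDB1, without MC38 SETDB1 replicate 3, 1 was called higher there, and without B16 SETDB1 replicate 2, 1 was called lower in B16 SETDB1.

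Of the 194 members with H3K9me3 islands in all B16 CTRL libraries, 110 had them in all 3 B16 SETDB1 libraries and 19 in none. An H3K9Ac island in any B16 SETDB1 library was found at 62 of the 194 (32.0%) and at 736 of the 1864 without H3K9me3 in B16 CTRL (39.5%). Of the 19 without H3K9me3 in B16 SETDB1, 12 had an H3K9Ac island in any B16 SETDB1 library and 4 in all 3. These shares were not tested against each other. The 4 are the windows in Rab3gap1, Nr2c2 and Hmox2 and one outside coding genes on chromosome 11, picked after their values were seen. In the Rab3gap1 window H3K9me3 was 0 in B16 SETDB1 and 9.17, 9.42 and 10.6 RPM in B16 CTRL, while its H3K9Ac was at the levels given above in B16 SETDB1 and 0 in B16 CTRL. In the window of Hmox2, a heme oxygenase, H3K9me3 was 0 in B16 SETDB1 and 4.53, 5.01 and 7.38 RPM in B16 CTRL, with H3K9Ac of 4.64, 4.93 and 5.75 RPM in B16 SETDB1. The H3K9me3 change was called in none of the 19, where edgeR's smallest adjusted p was 0.481.

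Members were spread unevenly over chromosomes. Chromosomes 3, 13, 19 and 14 held 41.8% of them in 19% of all windows, with 16.3 per 1000 windows on chromosome 19, 12.96 on 13, 10.03 on 3 and 7.97 on 14. The same chromosomes took more of the reads of both marks in MC38 CTRL than in B16 CTRL. Chromosome 13 held 4.31% of H3K9Ac and 8.06% of H3K9me3 reads in MC38 CTRL, and 2.82% and 2.49% in B16 CTRL, as means over libraries. Chromosome 19 held 3.93% and 3.51% in MC38 CTRL, and 2.54% and 1.63% in B16 CTRL. Windows acetylated in B16 CTRL only were most frequent on chromosome 6. Copy number was not measured, and its part in which windows pass the rule was not tested.

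**Figure D5:**
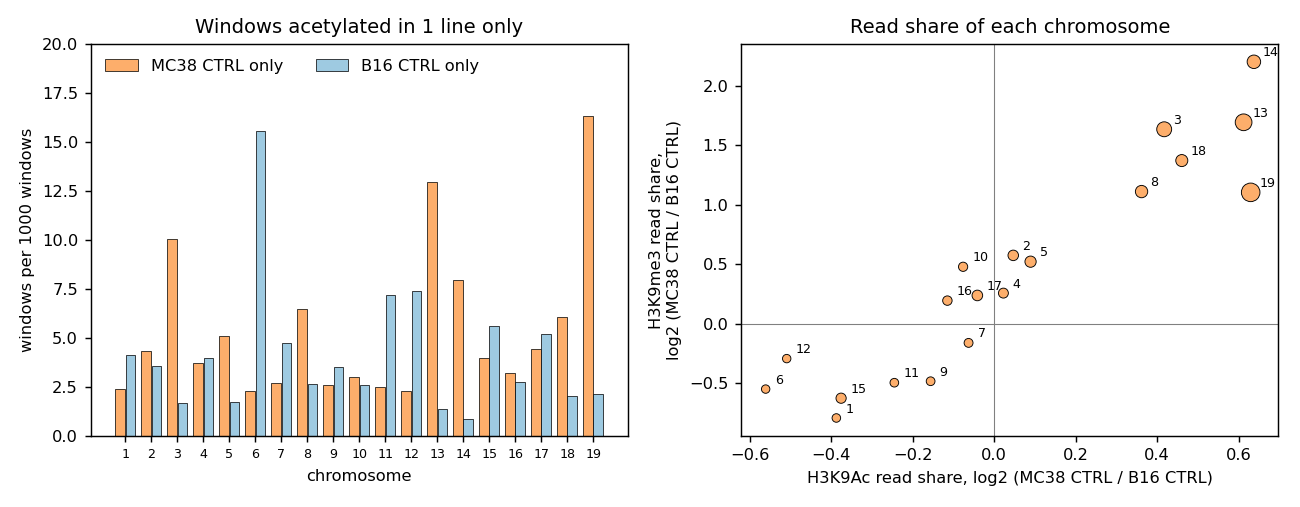
Left, windows acetylated in MC38 CTRL only and in B16 CTRL only per 1000 windows of each chromosome. Right, log2 ratio of each chromosome's read share, MC38 CTRL over B16 CTRL, for H3K9Ac (horizontal) and H3K9me3 (vertical), with point size by the number of MC38 CTRL only windows per 1000, where chromosomes 3, 13, 14 and 19 lie toward the upper right, with higher shares of both marks in MC38 CTRL.

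The threshold fell inside a continuum. Covered lengths come in steps of 200 bp, and 328 members had 2600 bp in their least covered MC38 CTRL library while 400 windows without B16 CTRL islands had 2400 bp. Just inside was a window of Tsc22d2 (chr3:58430001-58435000) with 30.3, 23.3 and 4.98 RPM in MC38 CTRL, and just outside one on chromosome 13 (chr13:49585001-49590000) with 13.5, 21.6 and 21 RPM. All 5000 bp lay under islands in every MC38 CTRL library at 313 members (12.7%).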

How the data were processed

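The 24 deposited files list SICER islands with the count of reads of 1 library in each island, called per library by the authors. Per the submitters' processing notes the tools were cutadapt, Bowtie2 2.1.0, SAMtools 0.1.8, SICER 1.1 and deepTools 3.1.1, with build mm10. The 4 input samples were not analysed here. Island counts were spread evenly over 5 kb windows, and edgeR 4.0.16 (R 4.3.3) quasi-likelihood tests with TMM scaling ran on all windows with a mean of at least 10 reads, with Benjamini-Hochberg adjustment and a threshold of 0.05. H3K9me3 was fitted on 12 libraries and H3K9Ac on the 6 SETDB1 libraries that the rule did not use. RPM divides by counted reads times the TMM factor. Tests were checked on simulated data with 4-fold changes, drawn from windows with reads in every library. That check does not cover windows with no island in a whole group, where most calls at members lie. DESeq2 1.42.0, other scalings, filters, island densities and left-out libraries were tried. Genes were named by rule: longest runs, most member windows, highest MC38 CTRL level, up to 3 per list, smallest p per H3K9me3 contrast, extremes in the SETDB1 libraries, and windows beside the threshold. Members and lists were chosen with earlier results of these data known. Values of some single genes that the rule names are not reported here.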

Additional observations from a re-analysis of the deposited data

How the results depend on the processing

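The number of members depended on the coverage asked for. It was 10151 with at least 1 bp under islands in each MC38 library, 313 with all 5000 bp and 4578 with denser islands only, those at or above the median reads per kb of their library, and 2907 to 3995 when a control library was left out. The share kept in MC38 SETDB1 was 67.5%, 39.3% and 65% under the same 3 settings, and 39% to 64.6% when a library was left out. Members called higher for H3K9Ac in MC38 SETDB1 than in B16 SETDB1 numbered 781 with denser islands, of which 581 were also among the 1229, and 429 to 1097 with a library left out.

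H3K9me3 calls in MC38 CTRL against B16 CTRL numbered 254 lower and 19 higher with DESeq2, 18 lower and 1 higher with denser islands, and 104 lower and 4 higher in a fit of the 6 libraries compared. With RLE scaling, total island reads or no filter, 1 was called higher. Leaving out a library gave 1 to 3 higher. In MC38 SETDB1 against MC38 CTRL, DESeq2 called 12 higher and 22 lower, and the fits on denser islands and on 6 libraries called 0 lower. Leaving out a library gave 0 to 1 higher and 2 to 5 lower. In B16 SETDB1 against B16 CTRL, DESeq2 called 12 higher and 14 lower, the fits on denser islands and on 6 libraries called 0 higher, and leaving out a library gave 0 to 1 lower. The cause of these differences was not tested.

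Libraries with the same replicate number correlated at 0.0424 to 0.446 for H3K9Ac and at -0.212 to 0.275 for H3K9me3 in their deviations from the group means over 18 pairs each, of which 14 and 8 were above 0.1. The pairs of the tested SETDB1 groups had 0.0524, 0.184 and 0.114 for H3K9Ac. As the labels tie no numbers together and not every pair was above 0.1, the numbers were not taken as pairs. Each H3K9Ac library did correlate best with a library of its own number, and H3K9Ac pairs of unlike number reached at most 0.0984. H3K9me3 libraries did not all correlate best with their own number. Whether a number stands for a shared batch was not tested. With the number as a replicate block, 0 members were called for H3K9Ac between the SETDB1 groups, 1 lower and 0 higher for H3K9me3 between the control groups, 0 lower in MC38 SETDB1 and 0 higher in B16 SETDB1. Of 314 values of single named windows under the alternatives, 279 kept their side of the threshold, 34 lost it, 1 passed it and 0 reversed. Islands were called per library, so depth sets how much of a weak region is covered, and a missing island does not show a missing mark.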
